A study of Mus musculus with 20 samples.

Results

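Among 10 libraries of cultured WWP2-/- renal myofibroblasts, 2 held Acta2 below 100 CPM, where CPM (counts per 1000000) is a gene's count scaled to the total of its library. Acta2 encodes α-smooth muscle actin, the actin isoform by which myofibroblasts are recognised. The libraries were WWP2-/- untreated replicate 3, with 39.7 CPM, and WWP2-/- TGFb1 replicate 1, with 49.0 CPM, and they are called the Acta2-low libraries here. The nearest WWP2-/- library above the limit, TGFb1 replicate 5, had 1459 CPM. Acta2 chose these 2 of the 20 libraries of the study, so every contrast between them and the other 8 WWP2-/- libraries is given as a description, without a test.

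A kidney myofibroblast is a contractile stromal cell that arises during fibrosis, and TGFβ1 is the cytokine best known for inducing it. Its identity rests on a contractile programme, driven by serum response factor and its coactivators, and on the secretion of collagens and other matrix proteins. Cultures from kidney can also hold fibroblasts that are not contractile, tubular epithelial cells, macrophages and endothelial cells, each of which can be followed by its own marker genes.

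WWP2 is an E3 ubiquitin ligase. The cells were grown from kidneys of WT and WWP2-/- mice on the C57BL/6J background, at the second passage, and were either left untreated or given TGFb1, with 5 libraries of each genotype and treatment. By the study's account the WWP2-/- cells lack the full-length and N isoforms of the protein, and the source of the Wwp2 counts that remain was not tested. The labels call all 20 samples myofibroblasts, which the study's methods describe as primary renal cells. They do not say whether replicates came from separate animals or cultures. The study's methods give, as a general rule for its plots, that a point is a mouse or the cells of one mouse, but do not say so of these libraries, so p-values measure only the spread between these samples, which may be technical.

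Library totals lay between 47520759 and 73063697 counts, and the Acta2-low libraries, with 48658418 and 61152909 counts, were within that range. Wwp2 was at 23.2 and 20.5 CPM in them, inside the 15.5 to 24.0 CPM of the other 8 WWP2-/- libraries and below the 46.7 to 61.6 CPM of the 10 WT libraries. Across all 20 libraries Wwp2 was lower in WWP2-/- than in WT, by a log2 fold change of -1.37 ± 0.08 (SE) untreated, with an adjusted p of 4.32e-08, and of -1.49 ± 0.08 with TGFb1, with an adjusted p of 1.05e-08, by edgeR's quasi-likelihood test. The sex-linked transcripts split the WWP2-/- libraries in the same way as Acta2 did. Xist, transcribed from the inactive X chromosome, was at 297 and 218 CPM in the Acta2-low libraries, and Ddx3y, Eif2s3y, Kdm5d and Uty of the Y chromosome had no count in either, where 3 counts would be 0.0616 and 0.0491 CPM. Such limits cover counting error only. Ddx3y was between 97.4 and 160 CPM in the other 8, of which 7 held Xist at no more than 0.0757 CPM. WWP2-/- untreated replicate 1 carried both, with 35.5 CPM of Xist and 116 CPM of Ddx3y, and its values are given apart from the other 7. Low Acta2 and the presence of Xist without Y-linked transcripts therefore cannot be told apart within WWP2-/-. In WT, 4 libraries held Xist with at most 0.0380 CPM of Ddx3y, and their Acta2 was between 945 and 1441 CPM. A further 4 WT libraries held both, with 110 to 212 CPM of Xist and 18.2 to 39.6 CPM of Ddx3y.

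Tbx3, Gata6 and Hmox1 were higher in both Acta2-low libraries than in any other WWP2-/- library. They were named as markers with earlier results of these data known, so where they count in the lists below they are no separate support. Tbx3, a T-box transcriptional repressor of limb, cardiac and urogenital mesenchyme, was at 42.9 CPM in the untreated and 44.4 CPM in the TGFb1-treated Acta2-low library. It was at 9.46 CPM in WWP2-/- untreated replicate 1, at 2.20 to 3.73 CPM in the other 7 WWP2-/- libraries and at 0.358 to 4.64 CPM in WT. Both Acta2-low libraries thus exceeded all other 18 libraries. Gata6, a zinc-finger factor of visceral and cardiac mesoderm, was at 41.3 and 36.9 CPM in the Acta2-low libraries, at 11.3 CPM in untreated replicate 1 and at 2.08 to 10.8 CPM in the other 7. WT libraries reached 36.3 CPM of Gata6, so the treated Acta2-low library was barely above the WT range. Hmox1, the heme oxygenase induced by heme and oxidative stress, was at 7812 and 6849 CPM, against 1641 CPM in untreated replicate 1, 142 to 615 CPM in the other 7 and 167 to 676 CPM in WT.

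**Figure D1:**
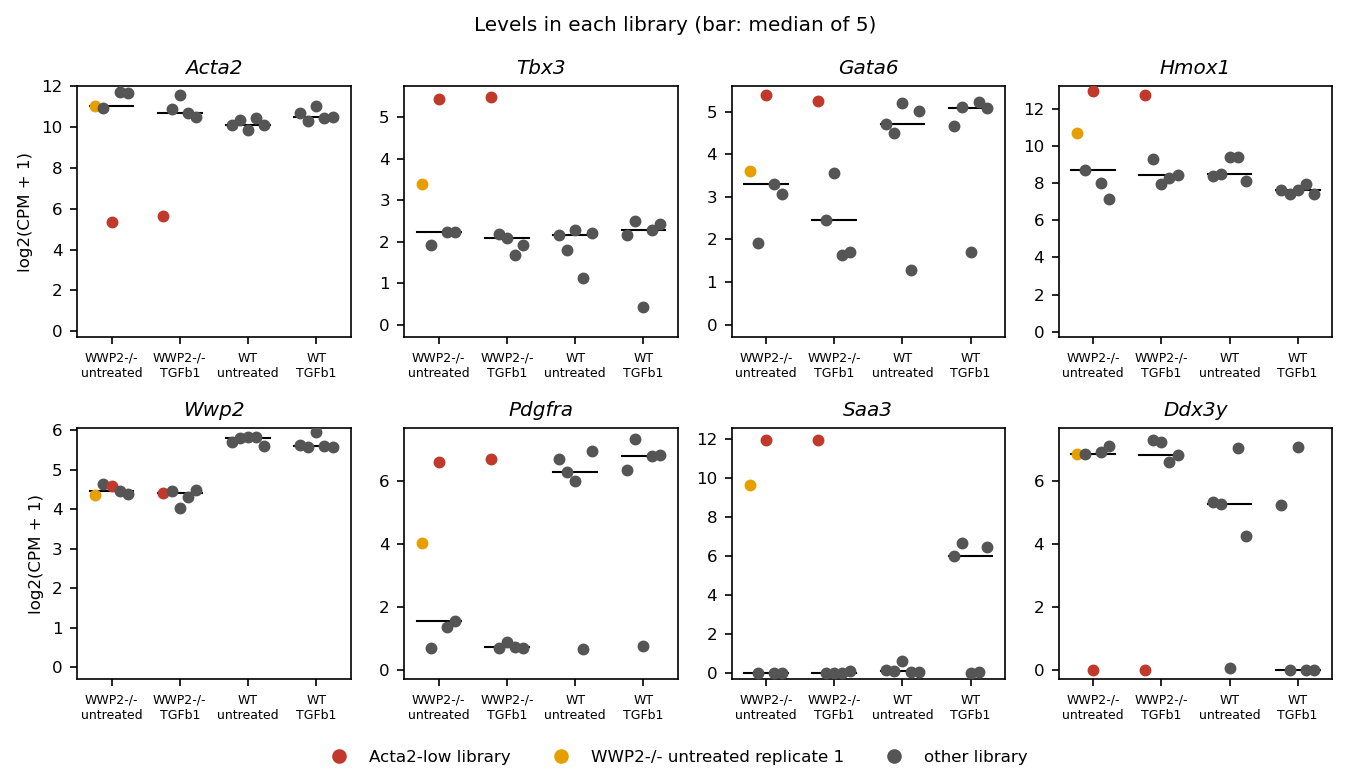
Level of 8 genes in each of the 20 libraries, as log2(CPM + 1), by genotype and treatment, with a bar at the median of 5 libraries. The Acta2-low libraries (red) sit below all others for Acta2 and above all others for Tbx3, Hmox1 and Saa3, whereas Pdgfra overlaps with WT libraries and Gata6 comes close to them, and WWP2-/- untreated replicate 1 (orange) lies between for several genes.

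To describe identity across the transcriptome, a gene was called apart when its CPM + 1 in both Acta2-low libraries lay at least 2-fold beyond the nearest of the other 8 WWP2-/- libraries. Of 20407 genes tested, 583 were higher by this rule (2.86%) and 739 were lower (3.62%). Without the 2-fold requirement, 4280 genes (21%) had both Acta2-low libraries above all other 8 and 4798 (23.5%) had both below. Gene lists are read against these shares and against the median over all genes tested of the log2 difference between the Acta2-low mean and the median of the other 8, which was -0.03.

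The contractile programme was low as a group. Acta2 (chr19:34241090-34255590, minus strand, GRCm38), which chose the libraries, was left out of the counts for this list. Of its other 19 contractile myofibroblast genes, 12 were at least 2-fold lower in both Acta2-low libraries and none was higher, 16 had no overlap with the other 8, and the median log2 difference was -2.71. Their summed level was 4539 and 4878 CPM, against 7913 to 13829 CPM in the other 8. Cnn1, encoding calponin, was at 2.69 and 3.19 CPM against 76.6 to 298 CPM, and Mylk, the myosin light chain kinase, at 4.73 and 4.38 CPM against 92.3 to 226 CPM. Myl9, the regulatory light chain, was at 20.6 and 22.8 CPM against 186 to 513 CPM. In each of these the Acta2-low libraries also lay below every WT library. Tpm1, Actg2 and Smtn, which encode a tropomyosin, γ-smooth muscle actin and smoothelin, followed with values of 364 and 397 CPM against at least 1976 CPM, 5.14 and 5.35 CPM against at least 28.8 CPM, and 50.7 and 49.0 CPM against at least 299 CPM. The members that overlapped in level with the other 8 were Cald1 (1809 and 2071 CPM against 1160 to 2567 CPM), Hspb1 and Synpo2. Mylk and Smtn, like Tbx3 and Pdgfra, overlap other annotated genes, and whether strand was used in counting is not given in the sources used here. In bulk RNA, fewer contractile cells and less contractile transcript per cell cannot be told apart.

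Serum response factor binds the CArG box. RefSeq promoter windows on GRCm38.p6, from 250 bases before to 50 after each start site, were searched for its strict form on both strands. That form is CCWWWWWWGG, where W is A or T. It was found in 535 of 32851 promoters (1.63%), which belong to 488 of 27025 genes (1.81%), and in 3 of the 16 contractile genes with a window (18.8%), Myl9, Cnn2 and Vcl. The 200 bases up to the start site are shown for Acta2, which chose the libraries, and for Myl9, with a strict match in capitals. The Acta2 window, chr19:34255374-34255573 on the minus strand, held no strict match, which says only that those letters are not in it. Its stretches ccctatatgg and ccttgtttgg each differ from the strict form by 1 base and were not counted. The search therefore does not show that Acta2 lacks a CArG box. The Myl9 window, chr2:156775264-156775463 on the plus strand, held 1 match that starts 161 bases upstream.
Acta2: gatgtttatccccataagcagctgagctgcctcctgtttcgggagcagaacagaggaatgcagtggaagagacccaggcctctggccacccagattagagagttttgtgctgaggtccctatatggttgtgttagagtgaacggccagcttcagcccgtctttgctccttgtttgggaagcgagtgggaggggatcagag
Myl9: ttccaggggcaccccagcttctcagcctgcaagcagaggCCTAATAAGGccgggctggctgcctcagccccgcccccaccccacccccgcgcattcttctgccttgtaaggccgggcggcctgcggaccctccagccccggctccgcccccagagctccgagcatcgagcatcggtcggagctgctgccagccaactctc
Both genes were low together in these libraries, and the strict match in only 1 of the windows is a description of sequence.

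Matrix and adhesion genes were lower as well. None of 21 fibrillar and other collagens was 2-fold higher and 10 were 2-fold lower (median log2 difference -1.56), and their summed level was 4430 and 4966 CPM against 9049 to 21089 CPM. Col3a1, a fibrillar collagen of interstitial matrix, was at 87.4 and 128 CPM against 515 to 1515 CPM, and Col5a1 at 135 and 137 CPM against 502 to 2732 CPM. Col1a1 lay lower without overlap, at 718 and 863 CPM against 1275 to 4811 CPM, whereas Col1a2, at 1050 and 1236 CPM, was within the 493 to 2655 CPM of the other 8. The chains of type IV collagen, a basement membrane protein, showed the widest gaps: Col4a3 was at 0.226 and 0.425 CPM against at least 121 CPM, and Col4a4, its neighbour on chromosome 1 in the opposite orientation, at 1.21 and 0.785 CPM against at least 90.2 CPM. Col4a1 and Col4a2, which form the common type IV network, were at 653 and 651 CPM and at 384 and 383 CPM, against at least 2179 and 1597 CPM. Fn1, encoding fibronectin, was at 3438 and 3670 CPM against 10129 to 45004 CPM. Laminin and other basement membrane genes were mixed: of 13, 6 were lower and 2 higher without overlap, and the median log2 difference was -0.46. With the 2-fold gap 2 were lower, among them Lama5 (58.1 and 49.1 CPM against at least 279 CPM). Nid1 was higher without a 2-fold gap, at 3435 and 3431 CPM against at most 1821 CPM, and Lama4 passed it, at 26.6 and 34.1 CPM against at most 9.02 CPM.

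Of 31 cell adhesion genes, 12 were 2-fold lower and 1 was higher. L1cam, a neural-type adhesion molecule, was at 0.288 and 0.311 CPM against at least 32.9 CPM, and Cdh6, the cadherin of developing renal tubules, at 5.26 and 4.53 CPM against at least 172 CPM. Itga1 and Itga11, integrin subunits that bind collagen, were at 2.04 and 2.86 CPM against at least 42.6 CPM, and at 7.95 and 9.65 CPM against at least 74.5 CPM. Pcdh17, a protocadherin, was the member that was higher, at 11.7 and 14.4 CPM against at most 2.07 CPM. Of 14 targets of YAP and serum response factor 5 were 2-fold lower and none higher, with Ccn2 (CTGF) at 346 and 290 CPM against at least 2418 CPM. Of 20 TGFβ1 response genes 5 were 2-fold lower and none higher, and the ligand genes Tgfb2 and Tgfb3 were among them, at 5.75 and 6.07 CPM against at least 48.8 CPM and at 26.3 and 25.9 CPM against at least 137 CPM. Tgfb1 itself, at 152 and 158 CPM, was inside the 69.2 to 201 CPM of the other 8.

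Fibroblast genes were split. Of 18 general fibroblast markers 5 were 2-fold higher and 4 were 2-fold lower. Pdgfra, the PDGF receptor that marks interstitial fibroblasts, was at 95.4 and 102 CPM in the Acta2-low libraries, at 15.2 CPM in untreated replicate 1 and at 0.602 to 1.91 CPM in the other 7. Dcn, encoding the proteoglycan decorin, was at 1171 and 1410 CPM against 212 CPM and 7.54 to 28.9 CPM. Mfap5, a microfibril protein, was at 128 and 132 CPM against 36.1 CPM and 1.56 to 28.5 CPM. Lum and Thy1 were the other 2 higher members, and the 4 lower ones were Col3a1, Col5a1, Fn1 and Vim (1006 and 1080 CPM against 2942 to 4031 CPM). Thbs2, a matricellular protein of fibroblasts and among the 20 largest gaps, was at 2931 and 3604 CPM against 486 CPM and 11.4 to 184 CPM. WT libraries reached levels near or above these, with up to 161 CPM of Pdgfra, 993 CPM of Dcn, 410 CPM of Mfap5 and 2935 CPM of Thbs2. The lowest WT levels of Pdgfra, 0.594 CPM in untreated replicate 4 and 0.673 CPM in TGFb1 replicate 3, belonged to the 2 WT libraries with at most 0.126 CPM of Xist.

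Among 85 transcription factors of stroma that passed the filter, 14 were 2-fold higher and 18 were 2-fold lower. En1, the homeobox factor of ventral ectoderm and of some dermal fibroblasts, was at 31.6 and 30.6 CPM against 5.75 CPM in untreated replicate 1 and at most 0.403 CPM in the other 7. Ebf3, a factor of mesenchymal precursors, was at 20.2 and 17.2 CPM against 3.11 CPM and at most 0.177 CPM. Foxf1, the forkhead factor of splanchnic mesoderm, was at 32.4 and 28.8 CPM against 5.80 CPM and at most 2.62 CPM, and the WT range of Foxf1 ended at 2.90 CPM. WT libraries reached 23.1 CPM of En1 and 58.3 CPM of Ebf3. Tbx15, Prrx1, Twist1 and Snai1, regulators of limb mesenchyme or of mesenchymal state, were higher too. Prrx1 was at 343 and 389 CPM against 83.6 CPM and 20.5 to 58.2 CPM. Twist1 was above the Acta2-low mean of 46.2 CPM in most WT libraries, so its level was not particular to the Acta2-low libraries. In % of the distance from the median of the other 7 to that mean, it reached 223.8% in WT TGFb1 replicate 4. Twist1 was at -3.86 and -3.43% in WT untreated replicate 4 and WT TGFb1 replicate 3. Tbx15 reached only 52.35% in WT, and Prrx1 and Snai1 are set here against WWP2-/- libraries only. Of 7 tested genes of cardiac and visceral mesoderm 3 were 2-fold higher, the marker Gata6 with Foxf1 and Foxf2, and none was lower.

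The 18 lower factors included several of the kidney lineage. Pax2, which is required for nephric epithelium, was at 3.68 and 2.5 CPM against 64.2 to 133 CPM, and Pax8, its partner in nephric specification, at 8.61 and 6.18 CPM against 48.2 to 220 CPM. Sox9, a factor of progenitors and repairing tubule, was at 3.78 and 2.45 CPM against at least 28.8 CPM. Irx2, Irx3, Sall1, Foxc1 and Lmx1b were lower by the same rule. These factors are set here against WWP2-/- libraries only. Pax2 and Pax8 also belong to the general epithelial list, whose summed level began at 49.5 CPM in WT. That sum is below the range of Pax2 alone in the other 8, so low Pax2 was not particular to the Acta2-low libraries. Of 34 Hox genes tested 4 were 2-fold lower, Hoxa10, Hoxb8, Hoxd10 and Hoxd11, and none was higher. Hoxd11, which patterns the metanephric field, was at 0.658 and 0.589 CPM against at least 3.37 CPM, and Hoxd10 at 2.92 and 2.24 CPM against at least 10.9 CPM. Of 11 genes of ureteric and pelvic mesenchyme, Tbx18 (29.5 and 27.1 CPM against at most 10.5 CPM) and Tbx3 were 2-fold higher and Sox9 and Bmp4 2-fold lower, and the list's median log2 difference was 0.011.

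Epithelial and most macrophage markers were low, and markers of other kidney cell types were mixed. Of 17 general epithelial genes 7 were 2-fold lower, 16 had no overlap and none was higher, and their summed level was 22.2 and 16.7 CPM against 200 to 1176 CPM. Cdh16, the kidney cadherin, was at 0.884 and 0.589 CPM against at least 8.24 CPM, and Krt8, a simple epithelial keratin, at 0 and 0.0327 CPM against at least 1.77 CPM. Havcr1, the injury receptor KIM-1 of proximal tubule, was at 1.44 and 1.75 CPM against 30.9 to 987 CPM. Pkhd1, the ciliary fibrocystin of tubules, was at 0.205 and 0.343 CPM against at least 72.7 CPM. Of 19 macrophage genes 8 were 2-fold lower and none was higher, with C1qa at 1.83 and 1.95 CPM against 13.9 to 122 CPM and Lyz2 at 40.0 and 34.7 CPM against 211 to 3101 CPM. The summed macrophage list, 760 and 818 CPM against 453 to 6249 CPM, overlapped, and Gpnmb alone contributed 643 and 709 CPM of it. Of 19 endothelial genes 3 were 2-fold lower and 1, Flt4, was higher, their summed level of 109 and 116 CPM was within the 79.9 to 306 CPM of the other 8, and Pecam1 was at 0.103 and 0.0491 CPM against at least 1.89 CPM. Tie1 and Erg, also endothelial, had no count in either Acta2-low library. The 5 urothelial genes tested had none 2-fold apart, and the list's summed level was above the other 8, at 12.7 and 11.3 CPM against 3.49 to 7.61 CPM. The 4 tested genes of collecting duct had none 2-fold apart either. The mesothelial list had 1 member higher, Gata6, and 3 lower, and Wt1 was at 15.5 and 13.6 CPM against at least 35.6 CPM. Some WT libraries were as low for part of these lists. The summed macrophage list ran from 297 to 7418 CPM in WT. Summed injured tubule genes began at 895 CPM in WT, against 1327 and 1640 CPM in the Acta2-low libraries. Proximal tubule genes began at 5.04 CPM, against 6.19 and 6.28 CPM. The epithelial and endothelial sums began at 49.5 and 124 CPM in WT, above the Acta2-low libraries. The part that the amount of epithelial, macrophage or endothelial RNA in the other 8 libraries plays in these gaps was not tested.

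Interferon-stimulated genes gave the most uniform group among those that were higher. All 10 listed members were at least 2-fold above the other 8, with a median log2 difference of 6.14 and a summed level of 5920 and 6524 CPM, against 1083 CPM in untreated replicate 1 and 66.2 to 220 CPM in the other 7. Ifit1, whose protein binds uncapped viral RNA, was at 829.4 and 925.6 CPM against 138 CPM and 2.71 to 7.37 CPM. Isg15, a ubiquitin-like modifier, was at 510 and 574 CPM against 97.3 CPM and 4.22 to 9.49 CPM, and Usp18, the protease that removes it, at 356 and 396 CPM against 59.5 CPM and 1.18 to 2.82 CPM. Irf7, the interferon regulatory factor that sustains the response, was at 599 and 673 CPM against 103 CPM and 4.54 to 9.13 CPM. The WT libraries that came near these levels of Ifit1 were TGFb1-treated: Ifit1 was at 506, 841 and 639 CPM in WT TGFb1 replicates 1, 2 and 5, at 29.5 and 8.06 CPM in replicates 4 and 3, and at 10.7 to 26.9 CPM in the 5 untreated WT libraries.

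Of the 20 widest gaps upward, 13 were of genes known to be inducible by interferon, a grouping made after the values were seen: Slfn8, Oas3, Zbp1, Iigp1, Trim30a, Ifi44, Gm4951, F830016B08Rik, Oasl2, Ifit1, Ifi208, Ifi206 and Usp18. The chemokine genes Ccl7 and Ccl8, and Mmp3, Thbs2, Prl2c2, Pdgfra and Cck, made up the rest. Zbp1, a sensor of Z-form nucleic acid, was at 243 and 275 CPM against 38.2 CPM in untreated replicate 1 and at most 1.72 CPM in the other 7. Oas3, a synthetase of 2-5A, was at 136 and 141 CPM against 19.6 CPM and at most 0.423 CPM. Ifi206 and Ifi208 are near-identical members of a cluster on chromosome 1, so their separate values, 116 and 122 CPM and 68.2 and 81.9 CPM, are uncertain.

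The letters GAAANNGAAA, a form of the interferon-stimulated response element, were searched in the same promoter windows on both strands, where matches can overlap each other. This search was chosen after the values were seen. They were found in 1131 of 32851 promoters (3.44%), which belong to 1079 of 27025 genes (3.99%), in 5 of the 7 interferon genes with a window and in 6 of 13 of the widest gaps upward, against 0 of 13 of the widest gaps downward. The 200 bases up to the start site are shown for Isg15, chr4:156200819-156201018 on the minus strand, and Ifit1, chr19:34640689-34640888 on the plus strand, because they held 3 and 2 matches, printed in capitals.
Isg15: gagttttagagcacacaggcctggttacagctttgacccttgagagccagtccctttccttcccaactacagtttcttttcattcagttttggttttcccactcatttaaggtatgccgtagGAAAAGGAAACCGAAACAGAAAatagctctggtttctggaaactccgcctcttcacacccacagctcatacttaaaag
Ifit1: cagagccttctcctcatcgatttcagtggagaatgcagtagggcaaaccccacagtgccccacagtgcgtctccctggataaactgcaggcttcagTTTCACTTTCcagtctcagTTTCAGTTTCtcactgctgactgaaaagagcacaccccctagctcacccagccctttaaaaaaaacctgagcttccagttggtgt
The 3 matches of Isg15 overlap and start 78, 72 and 66 bases upstream, and those of Ifit1 lie on the other strand, 104 and 85 bases upstream.

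Inflammatory genes were higher in 8 of 13 cases and lower in none, with a median log2 difference of 3.14. Saa3, an acute-phase apolipoprotein, was at 3985 and 4042 CPM in the Acta2-low libraries and at 813 CPM in untreated replicate 1, against at most 0.0976 CPM in the other 7 and 101 CPM in WT. Ccl2 and Ccl7, chemokines that draw monocytes, were at 2045 and 2191 CPM and at 1271 and 1328 CPM, against at most 367 and 203 CPM in any other WWP2-/- library and 340 and 214 CPM in WT. Il6, a cytokine of acute inflammation, was at 65.3 and 66.3 CPM against at most 10.4 CPM in WWP2-/- and 12.2 CPM in WT. Il1rl1, the receptor of interleukin-33, was at 270 and 423 CPM against at most 48.5 CPM in WWP2-/- and 19.0 CPM in WT. Mmp3, a stromelysin that degrades matrix, was at 444 and 716 CPM against 72.9 CPM in untreated replicate 1 and at most 1.92 CPM in the other 7.

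Genes of the response to oxidative stress and of the integrated stress response were higher in part. Of 15 genes of NRF2 and heme metabolism 7 were 2-fold higher, the marker Hmox1 among them, and none was lower. Slc7a11, the cystine transporter, was at 465 and 664 CPM against 8.51 to 98.7 CPM, Nqo1, a quinone reductase, at 240 and 347 CPM against 7.95 to 52.4 CPM, and Srxn1, sulfiredoxin, at 871 and 949 CPM against 60.7 to 253 CPM. Blvrb, the biliverdin reductase downstream of Hmox1, was at 161 and 166 CPM against 7.29 to 39.5 CPM. Of 11 genes of the integrated stress response 4 were 2-fold higher and none was lower. They were Ddit3 (CHOP), at 376 and 324 CPM against 54.0 to 138 CPM, and Chac1, Trib3 and Asns. Atf4, the factor of this pathway, was higher without a 2-fold gap, at 594 and 572 CPM against at most 342 CPM. Of 9 genes of the heat shock and unfolded protein response none was 2-fold apart. Of 19 cell cycle genes 9 were lower and 1 higher without overlap, against 23.5% and 21% of all genes, and the median log2 difference was -0.86. Their summed level, 250 and 246 CPM, was within the 181 to 634 CPM of the other 8. Rrm2 alone was 2-fold lower, at 3.10 and 3.60 CPM against at least 13.0 CPM. Mki67, a marker of proliferation, was at 0.617 and 0.998 CPM against 2.49 to 52.4 CPM.

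**Figure D2:**
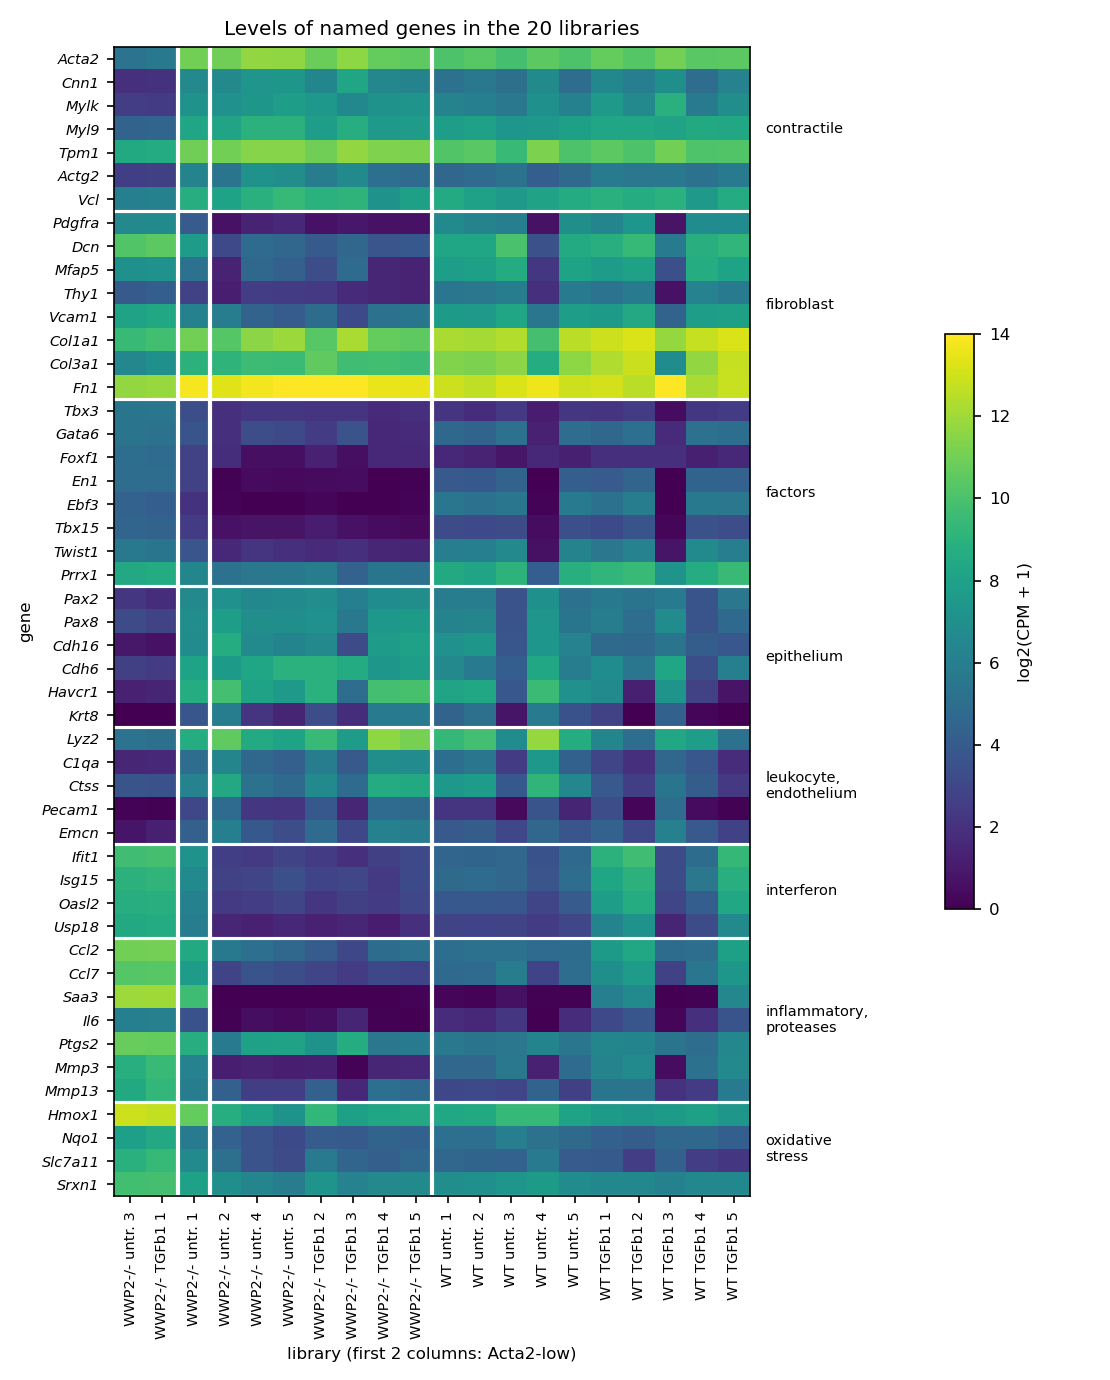
Level of named genes, as log2(CPM + 1) by colour, in the 20 libraries, ordered as the Acta2-low libraries, WWP2-/- untreated replicate 1, the other 7 WWP2-/- libraries and the 10 WT libraries, with genes grouped by role. Read along each row, the first 2 columns are darker than the other WWP2-/- columns for most contractile, epithelial, leukocyte and endothelial genes. They are brighter for most interferon, inflammatory and oxidative stress genes. Tbx3 and Foxf1 are brightest in those 2 columns, and Pdgfra and Dcn are bright in most WT columns too.

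Set against all other 18 libraries, WT included, 261 genes (1.28%) were 2-fold higher and 280 (1.37%) 2-fold lower in both Acta2-low libraries. Saa3, Ccl2, Ccl7, Ccl8, Il6, Il1rl1, Hmox1, Tbx3 and Foxf1 were among those that were higher, whereas Ifit1, Isg15, Pdgfra and Dcn were not. Genes singled out after their values were seen were Mmp13, a collagenase, at 356 and 615 CPM against at most 59.6 CPM in any other library, Kitl, the ligand of the KIT receptor, at 165 and 185 CPM against at most 31.6 CPM, and Pax5, a B-cell factor, at 17.1 and 17.3 CPM against at most 2.16 CPM. Prl2c2 and Prl2c3, near-identical prolactin-family genes whose separate counts are uncertain, were at 768 and 1104 CPM and at 283 and 406 CPM, against at most 127 and 50.7 CPM. Lower than all 18 were Acta2, Cnn1, Mylk and Myl9 of the contractile list and, singled out in the same way, Igf1 (1.03 and 1.23 CPM against at least 26.7 CPM) and the antioxidant enzyme gene Gpx3 (72.2 and 72.7 CPM against at least 538 CPM). Of the 20 widest gaps downward within WWP2-/-, Bmp4, a ligand of the BMP pathway, was at 2.16 and 1.5 CPM against at least 75.9 CPM in any other library, Fst, encoding the activin antagonist follistatin, at 1.93 and 1.64 CPM against at least 81.6 CPM, and Dkk3 at 21.4 and 26.6 CPM against at least 202 CPM. Spns2, a transporter of sphingosine-1-phosphate, had the widest gap of all, at 0.514 and 0.720 CPM against at least 226 CPM in the other 8. Nt5e, encoding the ectonucleotidase CD73, was at 0.185 and 0.114 CPM against at least 63.6 CPM, and Mgp, the matrix Gla protein that inhibits calcification, at 1.17 and 1.41 CPM against at least 68.0 CPM. WT levels of Nt5e began at 0.144 CPM, so it was low in some WT cultures too. Ddx3y, Col4a3, Adgra1, Pkhd1, Eif2s3y, Nrep, Fgf1, Col4a4, Klhdc8a, Gxylt2, Acta2, Gprc5c, Klhdc7a and Kdm5d were the rest of the 20.

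WWP2-/- untreated replicate 1 lay between the 2 sets for genes that were high. Its position was taken, gene by gene, as the share of the distance from the median of the other 7 WWP2-/- libraries (0%) to the mean of the Acta2-low libraries (100%), over 146 genes that were at least 8-fold higher in both Acta2-low libraries than in all of those 7. Its median position was 15.3%, with an interquartile range of 13.8 to 16.5%. The other 7 libraries had medians between -0.230 and 0.340%. Since the genes were chosen as low in all of those 7, medians near 0% follow from that choice and are no separate contrast. Its Hmox1, at 1641 CPM, and its Saa3, at 813 CPM, are examples. Over 91 genes at least 8-fold lower its median was 17.2%, with a wider interquartile range of 7.76 to 31.6%. The medians of the other 7 ran from -14.5 to 19.97% there, so replicate 1 was inside their range. Since replicate 1 was described after its values were seen, each count was repeated without it: 679 genes (3.33%) were 2-fold higher and 752 (3.69%) 2-fold lower against the remaining 7. Over the 146 genes the WT libraries were spread, with medians of 24.5, 50.4 and 33.2% in TGFb1 replicates 1, 2 and 5 and at most 2.93% in the other 7, and with wide quartiles, such as 9.09 to 78.8% in TGFb1 replicate 2. Over the 91 lower genes most WT libraries lay far toward the Acta2-low libraries. WT untreated replicate 3 and TGFb1 replicates 2, 4 and 5 had medians of 87.2, 81.8, 91.6 and 80.9%. WT untreated replicates 1, 2 and 5 and TGFb1 replicate 1 were at 50.5, 48.4, 73.1 and 57.1%. Only WT untreated replicate 4 and TGFb1 replicate 3 were not, at -24.2 and -1.84%.

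**Figure D3:**
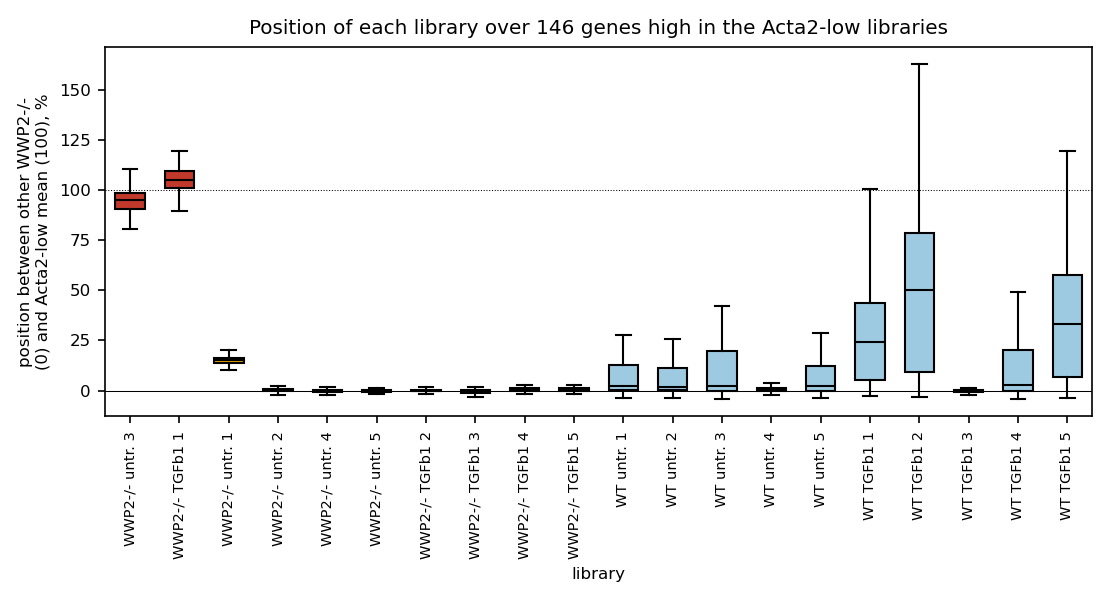
Position of each library (x axis) over 146 genes high in the Acta2-low libraries, in % of the distance from the median of the other 7 WWP2-/- libraries (0) to the Acta2-low mean (100), with boxes for quartiles, a line for the median and whiskers to the last value within 1.5 box lengths. WWP2-/- untreated replicate 1 has a narrow box at 15.3%, while WT TGFb1 replicates 1, 2 and 5 have wide boxes with medians of 24.5 to 50.4%.

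The Acta2-low libraries were labelled with different treatments and differed little from each other. Over the genes tested, log2(CPM + 1) of the 2 libraries had a Pearson r of 0.998, across genes of 1 pair, and 18 genes were 2-fold apart, 7 higher and 11 lower with TGFb1. Each Acta2-low library paired with another WWP2-/- library gave r of 0.922 to 0.957 and 2488 to 3662 genes. The only pairs with fewer genes 2-fold apart lay within a group: WWP2-/- untreated replicates 4 and 5 had 8, and WT untreated replicates 1 and 2 had 16. Between groups the Acta2-low pair had the fewest. Next came WWP2-/- untreated replicate 2 and WWP2-/- TGFb1 replicate 5, across treatments, with 38 and r of 0.998. WWP2-/- TGFb1 replicate 5 and WT untreated replicate 4, of different genotype and treatment, had 73, with r of 0.997. The labels make the Acta2-low libraries separate samples of different groups and they were kept as such, but whether they are separate cultures was not tested. Neither was whether their treatment labels hold, while their Wwp2 was in the range of the other WWP2-/- libraries. Of the 20 TGFβ1 response genes, Cthrc1, a secreted collagen triple-helix protein, was the only one 2-fold higher in the treated library (5.73 and 13.3 CPM), 14 were above 0 on the log2 scale, and the list's median was 0.06 against -0.04 for all genes. Postn, encoding periostin, was at 311 CPM untreated and 441 CPM treated. With 1 library on each side this comparison has no replicate check.

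Taken within treatments, each against its own other 4 libraries, the 2 departures shared many genes. The untreated Acta2-low library had 742 genes 2-fold above the other 4 untreated WWP2-/- libraries (3.64%) and 1233 below (6.04%), and the treated one had 815 (3.99%) and 924 (4.53%) relative to its own 4. Of these, 633 genes were higher in both, which is 85.3% of the untreated and 77.7% of the treated list, and 803 were lower in both, 65.1% and 86.9% of the lists. Because the 2 libraries were both chosen by low Acta2 and were alike, this overlap describes them and is no separate support.

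**Figure D4:**
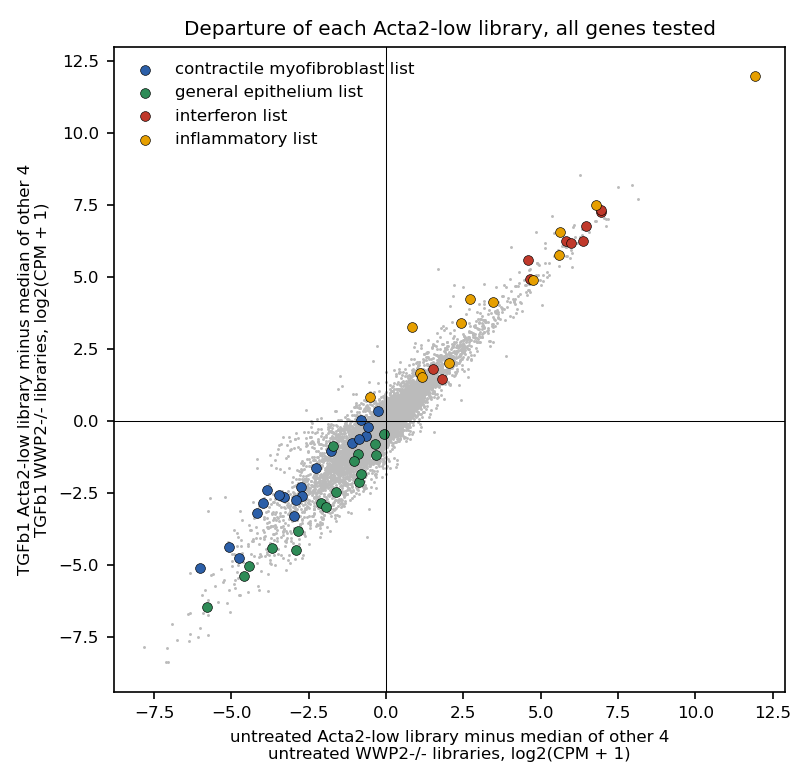
Difference of each Acta2-low library from the median of the other 4 WWP2-/- libraries of its treatment, in log2(CPM + 1), untreated on the x axis and TGFb1 on the y axis, for all 20407 genes tested (grey) and 4 lists (coloured). Interferon and inflammatory genes lie at the upper right, with Saa3 farthest, and contractile and epithelial genes at the lower left.

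The WT libraries, which the limit on Acta2 did not use, allowed a test of whether the same genes follow Acta2 elsewhere. Acta2 ranged only from 945 to 2130 CPM there. With treatment as a covariate, 4016 of 20406 genes had a slope on log2 Acta2 that passed an adjusted p of 0.05 by edgeR's quasi-likelihood test, 2590 rising with Acta2 (12.7%) and 1426 falling (6.99%). This count rested on 1 library: without WT TGFb1 replicate 3, which had the most Acta2 and 0.126 CPM of Xist, no gene passed, with 4626 at an unadjusted p under 0.05, and with Xist as a covariate none passed, with 1776. Macrophage genes rose with Acta2 in 16 of 19 cases, epithelial genes in 11 of 17 and endothelial genes in 12 of 19, with none of the first 2 lists falling. Of the contractile genes without Acta2 5 of 19 rose and none fell, among them Cnn1 (slope 1.82 ± 0.47 (SE) per doubling of Acta2, adjusted p 0.0258) and Mylk (2.68 ± 0.49, adjusted p 0.00770). Tbx3 (-3.95 ± 0.88, adjusted p 0.0149) and Gata6 (-5.36 ± 1.47, adjusted p 0.0314) fell with Acta2. Hmox1 (-0.23 ± 0.52, adjusted p 0.777) and Foxf1 (0.68 ± 0.56, adjusted p 0.407) did not pass, nor did any of the 10 interferon genes. The smallest adjusted p belonged to Col4a4, Klhdc8a, Gad1, Hmgb3 and Rragb among genes that rose, with 0.00156 each, and to Layn, Grem1, Slc39a8, Osbp2 and Igfbp4 among those that fell. Grem1, the BMP antagonist gremlin, had a slope of -2.98 ± 0.39 in WT with an adjusted p of 0.00242, and was at 3174 and 3504 CPM in the Acta2-low libraries against 778 CPM in untreated replicate 1 and 85.2 to 231 CPM in the other 7. Col4a4 had a slope of 6.04 ± 0.56.

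The 2 libraries bore on the comparisons of genotype for which the cultures were made. WWP2-/- against WT with TGFb1 gave 1238 genes with all 20 libraries, 429 higher (2.1%) and 809 lower (3.96%). Without the Acta2-low libraries it gave 3454 (16.9%), 1533 higher and 1921 lower, and 1222 genes were called in both fits, each in the same direction. Of the 10 interferon genes none passed with all libraries, and all 10 were lower in WWP2-/- without them. Ifit1 went from a log2 fold change of -1.20 ± 1.64 (SE, adjusted p 0.703) to -6.56 ± 1.44 (adjusted p 0.0106). Pdgfra went from -2.25 ± 1.67 (adjusted p 0.430) to -7.27 ± 1.56 (adjusted p 0.0104), and Saa3 from 3.90 ± 2.95 (adjusted p 0.441) to -10.77 ± 3.50 (adjusted p 0.0447). General fibroblast genes were lower in 5 of 18 cases with all libraries and in 11 of 18 without the Acta2-low pair. Macrophage genes, of which none of 19 passed with all libraries, were higher in WWP2-/- in 16 cases without them, with Lyz2 at 3.28 ± 0.94 (adjusted p 0.0278). Dcn went from -0.68 ± 1.45 (adjusted p 0.820) to -4.92 ± 1.19 (adjusted p 0.0148), whereas Col1a1 was lower in both fits, by -1.98 ± 0.58 (adjusted p 0.0492) and -1.78 ± 0.58 (adjusted p 0.0462). Hmox1 went from 3.02 ± 1.06 (adjusted p 0.0915) to 0.79 ± 0.51 (adjusted p 0.294), and Tbx3 from 1.63 ± 0.95 (adjusted p 0.298) to -0.36 ± 0.56 (adjusted p 0.700). Leaving out single libraries of the 2 groups, Acta2-low or not, gave 464 (without WT TGFb1 replicate 2) to 2702 genes (without WT TGFb1 replicate 3). A difference between the fits was not tested as such, and since the pair was left out for a measured level, the second fit describes how far the counts depend on it. The WWP2-/- TGFb1 libraries left in that fit held at most 0.0706 CPM of Xist. WT TGFb1 replicates 1, 2, 4 and 5 held 120 to 225 CPM. Genotype and sex-linked transcripts can therefore largely not be told apart in the second fit, and the part of each was not tested.

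**Figure D5:**
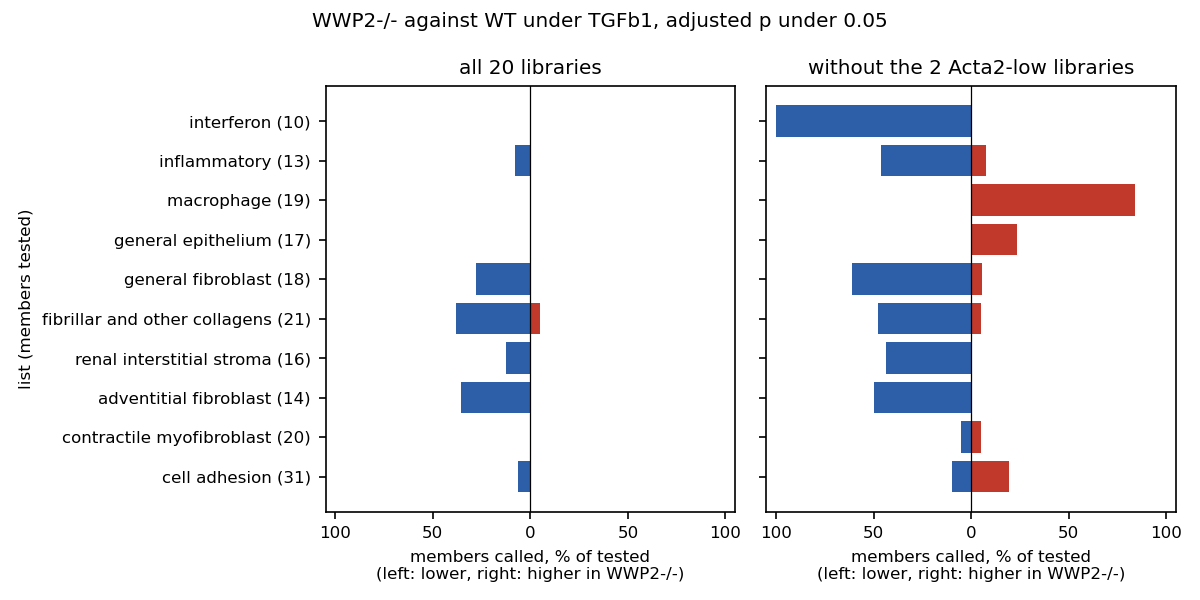
Share of each list's tested members (number in brackets) that passed an adjusted p of 0.05 in WWP2-/- against WT under TGFb1, lower to the left and higher to the right of 0, with all 20 libraries and without the Acta2-low libraries. The interferon list goes from 0 to all 10 members lower, and the macrophage list from 0 to 16 of 19 higher.

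Untreated, WWP2-/- against WT gave 148 genes with all libraries, 21 higher (0.103%) and 127 lower (0.622%), and 270 without the Acta2-low libraries (1.32%), of which 117 were shared. Here too Xist differed, at 110 to 212 CPM in WT replicates 1, 2, 3 and 5 and at most 35.5 CPM in the WWP2-/- libraries left. Setting WWP2-/- untreated replicate 1 aside as well left 4 genes, and leaving out single libraries gave 1 to 744, the last without WT untreated replicate 4. Acta2 itself had a log2 fold change of 0.83 ± 0.76 (adjusted p 0.630) with all libraries, and no untreated value is given without the pair, since its own level chose them. Within WWP2-/-, TGFb1 against untreated gave no gene by edgeR's quasi-likelihood test either with all libraries (713 at an unadjusted p under 0.05, and 44 by DESeq2) or without the Acta2-low libraries (1221 at an unadjusted p under 0.05).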

How the data were processed

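RNA was sequenced in 20 libraries of primary renal myofibroblasts. The values used are the counts per gene that the authors deposited: per the methods, poly-A libraries were read in pairs, aligned with STAR to GRCm38 and counted over exons with featureCounts. Gene names and positions came from GENCODE M21 and matched 51633 of 51826 genes. A gene was tested if 5 or more libraries held 5 or more counts of it, as in the study, and 20407 were. CPM used the whole count total of a library, and differences between libraries were taken on log2(CPM + 1), which understates changes of low genes. The WWP2-/- libraries under 100 CPM of Acta2 were described against the other 8 without a test. The members and gene lists were chosen with earlier results of these data known. Named genes were the markers, the 42 lists and the 20 widest gaps each way, with others said to be picked after their values were seen. Contrasts of genotype and treatment, and the slope on log2 Acta2 in WT, were fitted with edgeR 4.0.16 in R 4.3.3 (TMM, quasi-likelihood test, Benjamini-Hochberg adjustment over all genes tested, threshold 0.05). Alternatives were DESeq2 1.42.0, RLE factors, no filter, other gap sizes and pseudocounts, Xist as a covariate, a replicate block, and leaving out each library or the Acta2-low pair. Leaving out WWP2-/- untreated replicate 1 with that pair, and comparing with all other 18 libraries, were chosen after seeing the data. Scripts were tested on simulated data. Promoter sequences came from RefSeq (GRCm38.p6).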

Additional observations from a re-analysis of the deposited data

Results flagged for a closer look

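In groups of 5, a library was marked when its gap to the nearest other exceeded a set share of the group's range (Dixon's test), which chance does in about 1 in 20 groups. Of 28 such tests, 10 marked a library. WWP2-/- untreated replicate 3 was the highest of its group for Tbx3 (42.9 CPM, others at most 9.46 CPM), Gata6 (41.3 CPM, others at most 11.3 CPM), Hmox1 (7812 CPM, others at most 1641 CPM) and Xist (297 CPM, others at most 35.5 CPM). WWP2-/- TGFb1 replicate 1 was the highest for Tbx3 (44.4 CPM, others at most 3.53 CPM), Gata6 (36.9 CPM, others at most 10.8 CPM), Hmox1 (6849 CPM, others at most 615 CPM) and Xist (218 CPM, others at most 0.0706 CPM). These libraries were chosen by Acta2, so their 8 marks describe them and are no separate support.

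WT TGFb1 replicate 3 was marked for Wwp2, at 61.6 CPM against 46.7 to 48.4 CPM in the other 4, and for Tbx3, at 0.358 CPM against 3.48 to 4.64 CPM. It is also the library without which no gene passed the test of a slope on Acta2 in WT.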

How the results depend on the processing

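With a 4-fold gap, 159 genes were higher and 240 lower in both Acta2-low libraries, and against all other 18 libraries 261 and 280. Leaving out 1 of the other 8 gave 583 to 679 higher and 745 to 989 lower, and 2005 to 2247 within untreated (1975 with all) and 1779 to 2433 within TGFb1 (1739 with all). For WWP2-/- against WT with TGFb1 and untreated, DESeq2 gave 2672 and 747 genes, and 3454 and 270 were called without the Acta2-low libraries, or 3109 and 4 without WWP2-/- untreated replicate 1 as well. The TGFb1 comparison gave 790 without the filter. Single libraries decided both counts. With TGFb1 the count was 2702 without WT replicate 3, 2036 without WWP2-/- replicate 1, and 715, 575 and 656 without WWP2-/- replicates 2, 4 and 5 and 655, 464, 679 and 493 without WT replicates 1, 2, 4 and 5. Untreated it was 744 without WT replicate 4, 1 without WWP2-/- replicate 1, 4 or 5 or WT replicate 3 or 5, 69 and 55 without WWP2-/- replicates 2 and 3, and 13 and 35 without WT replicates 1 and 2. TGFb1 against untreated in WWP2-/- gave 44 by DESeq2 and 0 to 64 (without WWP2-/- untreated replicate 3) on leaving out libraries. The WT slope gave 0 to 4532 on leaving out libraries, 2111 without WT untreated replicate 4, and 0 with Xist as a covariate. The fold change of Acta2 with TGFb1, -0.05 ± 0.75 and -0.54 to 0.26 on leaving out libraries, changed sign without being called, to 0.26 without the Acta2-low libraries, without WWP2-/- untreated replicate 1 too and without WWP2-/- TGFb1 replicate 1, which follows from how these libraries were chosen, and to 0.012 without WWP2-/- TGFb1 replicate 5 and to 0.023 without WT TGFb1 replicate 3. The causes were not tested.

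Deviations of same-numbered libraries from their group means correlated at -0.22 to 0.32 in WWP2-/- and -0.53 to 0.50 in WT. The WWP2-/- means include the Acta2-low libraries, so these values do not settle whether equal replicate numbers mark pairs. A replicate block gave 670 genes with TGFb1, 1 untreated and 1105 for the WT slope. The medians of the 42 lists moved by less than the spread under TMM scaling. Of the differences of single genes recomputed under TMM, other pseudocounts or without a library, 463 moved by less than the spread, and 21, under other pseudocounts, by more. Scaling by TMM moved the median difference of all genes from -0.03 to -0.0039.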

Other observations

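Further lists gave these values against the other 8 WWP2-/- libraries. Of 10 podocyte genes 3 were 2-fold lower, Synpo and Wt1 among them, and none was higher. Of 11 pericyte and mesangial genes Mcam and Rgs4 were 2-fold lower. Of 16 genes of renal interstitial stroma Meis1 and Nr2f1 were higher and Wnt4 was lower, with Meis1 at 38.3 and 38.0 CPM against at most 15.3 CPM, and Wnt4 at 1.30 and 1.57 CPM against at least 12.7 CPM. Of 14 adventitial fibroblast genes Mfap5 was higher and Cd34 lower, and Cd34 was at 0.0617 and 0.131 CPM against at least 2.23 CPM. Of 7 injured tubule genes Vcam1 was higher and Havcr1, Sox9 and Cdh6 were lower. Of 10 genes of cartilage and tendon Mkx was higher and Sox9, Scx and Col11a1 were lower, and of 11 genes of p53 and senescence Gdf15 was lower. No member of the adipocyte, collecting duct, glia, lymphocyte, osteoblast and urothelium lists was 2-fold apart. The lists of 7 genes of dendritic cells and MHC class II, 4 of neurons, 6 of proximal tubule, 4 of the loop of Henle and distal tubule and 6 of skeletal muscle had 1, 2, 1, 1 and 1 members lower and none higher.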
